A study of Mus musculus with 12 samples.

Results

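The genes described here are 43 mouse genes of the Polycomb and trithorax chromatin systems, chosen by name from the subunits of PRC2, PRC1, the MLL (COMPASS) complexes, the H3K27 demethylases, DOT1L and the PR-DUB deubiquitinase. All 43 were found among the 26305 genes with an identifier in the count table, and all 43 were among the 11997 genes with enough counts to be tested. RNA was measured in EMRK1184luc, a B cell lymphoma line from 1 female mouse carrying the Eµ-Myc transgene, in which an immunoglobulin enhancer drives the oncogene Myc in B cells. All groups carried that transgene and a lentiviral luciferase reporter. Cells received 5 µM WM-1119, an inhibitor of the lysine acetyltransferases KAT6A and KAT6B, or the vehicle DMSO, for 3 or 6 days, with 3 libraries in each of the 4 groups. The design speaks of biological replicates, but no separate cultures are named, so each p-value reflects only how much these libraries of 1 cell line vary, and that spread may be technical.

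Polycomb proteins keep developmental genes silent. PRC2 methylates histone H3 at lysine 27 and PRC1 ubiquitinates histone H2A. Trithorax proteins work in the opposite sense: MLL enzymes methylate histone H3 at lysine 4, and UTX and JMJD3 remove methyl groups from lysine 27. In B cells Ezh2 is best known as a germinal centre and lymphoma gene. Bmi1 was found as a gene that cooperates with Myc in Eµ-Myc mice by holding down the Cdkn2a locus.

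Library totals ran from 14736267 to 41749357 counts. Pearson correlations between replicates, on log2 CPM over tested genes, were at least 0.9959. The 6 B cell markers summed to 2220 to 2530 CPM (counts scaled to a common library size with TMM factors) in all libraries, while 6 T cell markers summed to at most 0.483 CPM and 4 of the 6 had no count. Within the B cell list Cd79b was higher (log2 fold change 0.51 at 3 days and 0.48 at 6 days), and the transcription factors Ebf1 (-0.37 and -0.29) and Pax5 (-0.47 and -0.58) were lower with WM-1119; Vpreb3 was higher at 6 days (0.17, adjusted p = 0.0107). The myeloid sum was 105 to 128 CPM and came almost wholly from Itgam, which was lower at 3 days (-0.14, adjusted p = 0.0281) and not called at 6 days (0.10), although Csf1r was higher (2.14 and 2.25). The endothelial sum of 86.3 to 104 CPM came from Pecam1, which was lower at 6 days (-0.22, adjusted p = 0.00149). The part of these markers in the results was not tested. The 6 fibroblast markers summed to 0.476 to 23.8 CPM, and Col1a1 exceeded 1 CPM in 5 libraries: WM-1119 3 days replicate 2, and replicates 1 and 2 of both 6-day groups. In bulk RNA, fewer cells of a type and less RNA per cell cannot be told apart.

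The stretches upstream of 5 members whose RNA changed at 1 or both times (edgeR quasi-likelihood test, adjusted p below 0.05) are shown first, because they include both RING ligase genes, Ring1 and Rnf2, and the most abundant PCGF gene, Bmi1. These 5 were the changed members whose 250 bases before the RefSeq start site overlapped no annotated exon or gene. Sequences are from RefSeq on GRCm38.p6, on the strand of the gene, 5′ to 3′. Capitals mark matches, on either strand, to the E-box CACGTG, the CCAAT box CCAAT, the GC box GGGCGG, the TATA box TATAAA, or 3 E2F octamers (TTTCGCGC, TTTGGCGC, TTTCCCGC). Matches of these motifs may overlap, and adjoining matches form 1 run of capitals.
Bmi1, chr2:18676768-18677017, plus strand: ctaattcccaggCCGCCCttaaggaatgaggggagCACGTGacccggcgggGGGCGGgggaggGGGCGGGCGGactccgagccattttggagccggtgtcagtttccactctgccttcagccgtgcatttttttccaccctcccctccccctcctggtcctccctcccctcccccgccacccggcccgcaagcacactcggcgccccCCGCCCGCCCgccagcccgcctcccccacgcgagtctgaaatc
Ezh1, chr11:101226464-101226713, minus strand: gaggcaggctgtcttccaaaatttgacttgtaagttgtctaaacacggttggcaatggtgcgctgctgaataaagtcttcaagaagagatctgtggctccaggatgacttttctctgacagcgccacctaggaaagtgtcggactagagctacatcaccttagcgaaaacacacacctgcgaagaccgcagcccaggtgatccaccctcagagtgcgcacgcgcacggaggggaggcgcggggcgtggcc
Men1, chr19:6334729-6334978, plus strand: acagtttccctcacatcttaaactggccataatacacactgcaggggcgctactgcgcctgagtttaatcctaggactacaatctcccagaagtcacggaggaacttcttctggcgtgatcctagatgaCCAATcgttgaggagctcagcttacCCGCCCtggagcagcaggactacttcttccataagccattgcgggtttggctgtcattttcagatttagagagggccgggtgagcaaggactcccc
Ring1, chr17:34024681-34024930, minus strand: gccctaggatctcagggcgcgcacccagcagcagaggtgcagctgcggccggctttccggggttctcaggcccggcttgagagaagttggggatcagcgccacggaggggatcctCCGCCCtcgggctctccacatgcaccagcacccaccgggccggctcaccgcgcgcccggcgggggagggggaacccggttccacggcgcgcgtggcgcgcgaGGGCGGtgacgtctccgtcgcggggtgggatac
Rnf2, chr1:151500992-151501241, minus strand: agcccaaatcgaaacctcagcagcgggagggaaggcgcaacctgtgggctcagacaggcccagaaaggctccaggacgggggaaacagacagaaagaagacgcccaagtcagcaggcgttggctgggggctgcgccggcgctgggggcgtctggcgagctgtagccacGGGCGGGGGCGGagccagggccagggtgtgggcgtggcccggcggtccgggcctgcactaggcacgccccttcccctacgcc

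Bmi1 had 1 E-box and 6 GC box matches in this window, Ring1 and Rnf2 had 2 GC boxes each, Men1 had 1 CCAAT box and 1 GC box, and Ezh1 had none of the motifs. A match is a description of letters only. CpG dinucleotides numbered 30 before Ring1, 21 before Bmi1, 20 before Rnf2, 14 before Ezh1 and 8 before Men1. A promoter entry was found for 37 of the 43 members, with 49 start sites in all. Over those 49 windows the median was 21 CpG and 64.8% GC, against 6 CpG and 52.4% GC over all 32851 windows of the table. The E-box was found in 18.4% of member windows and 6.02% of all, the GC box in 73.5% and 32.7%, the CCAAT box in 32.7% and 33.8%, the TATA box in 2.04% and 12.4%, and an E2F octamer in 4.08% and 1.53%.

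Per unit of length the members spanned a wide range. The mean RPKM over 12 libraries was highest for the histone chaperones Rbbp7 (180) and Rbbp4 (137), which serve several other complexes too, followed by Ezh2 (97.9), and lowest for Phf1 (4.58) and Phc3 (4.62). The median was 18.7 RPKM over the 43 members and 12.9 over all tested genes. Only Pcgf1 had a mean below 10 CPM. Within families 1 paralog dominated in several cases: Ezh2 made up 87.8% ± 1.2 (SD, n = 3) of the summed Ezh1 and Ezh2 RPKM in DMSO at 3 days, Rnf2 80.6% ± 2.16 of Ring1 and Rnf2, and Bmi1 52.2% ± 1.39 of the 6 PCGF genes.

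**Figure D1:**
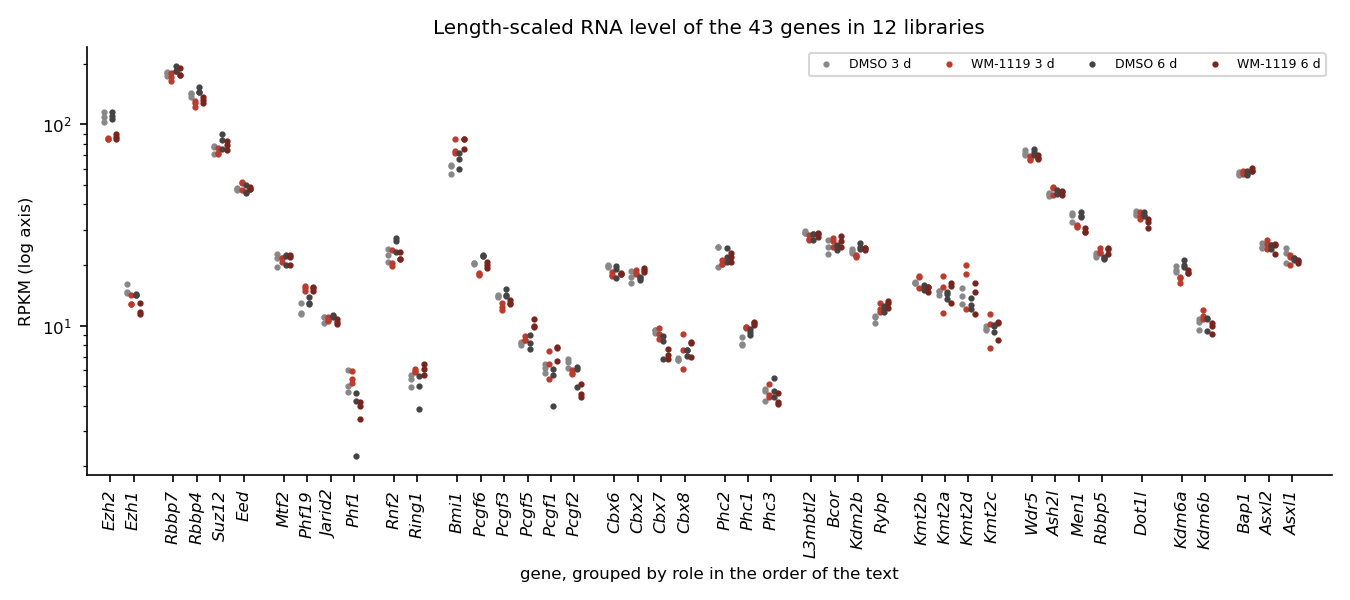
RPKM (reads per kilobase of exon and CPM-scaled depth, log axis) of each of the 43 genes in each of the 12 libraries, genes grouped by role and coloured by group. Rbbp7, Rbbp4, Ezh2, Suz12, Bmi1 and Wdr5 sit highest, Phf1, Phc3 and Ring1 lowest, and the groups of a gene lie close together next to the distance between genes.

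A call at 3 or 6 days was made in every role except the MLL enzymes and PR-DUB. The called changes were small and went in both directions. In the CBX role the call was that of Cbx6 alone, and in variant PRC1 that of Rybp alone. Both were lost on leaving out single libraries, as given below. At 3 days 12 of 43 members passed the test (27.9%), 4 higher and 8 lower, against 24.4% of all tested genes (11.8% higher and 12.6% lower). At 6 days 16 of 43 passed (37.2%), 6 higher and 10 lower, against 30.8% of all tested genes (15.7% higher and 15.1% lower). Both shares are near the background. Without the 5 libraries with Col1a1 above 1 CPM 7 members were called at 3 days, where 2296 of 12185 tested genes were called. At 6 days that left 1 library against 1. The part of the Col1a1 signal in the results was not tested. With upper-quartile scaling in place of TMM the split at 6 days became 8 higher and 7 lower, and that of all tested genes 2058 higher and 1621 lower.

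The median absolute log2 fold change of the members was 0.09 at 3 days and 0.10 at 6 days, below the 0.13 and 0.14 of all tested genes; the members were also more abundant, with a median of 98.3 against 34.8 CPM. No member changed beyond 2-fold, while 391 and 548 of all tested genes did. The largest fitted values were -0.36 for Ezh2 at 3 days and 0.48 for Pcgf1 at 6 days. The 3 treated libraries lay wholly to 1 side of the 3 controls for 19 members at 3 days (44.2%, against 39.9% of all tested genes) and 17 at 6 days (39.5%, against 41.3%). With 3 libraries on each side no exact two-sided permutation p can go below 0.10, so the calls rest on the spread shared across genes in the edgeR fit.

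Of the 19 members called at either time, 9 were called at both, all in the same direction: Phf19 and Bmi1 were higher, and Ezh1, Ezh2, Rbbp4, Pcgf3, Pcgf6, Men1 and Kdm6a were lower. A call came at 3 days alone for 3 members and at 6 days alone for 7, and 24 members were called at neither time. The share of all tested genes called at both times, or at either, was not counted. These counts therefore cannot be set against a background. The difference between the effects was itself tested, and 0 of 43 members passed (edgeR; 0.725% of all tested genes did; 1 member had an unadjusted p below 0.05; DESeq2 and limma voom gave 0 too), so no member was shown to respond differently at 6 days than at 3 days. The comparisons at the 2 times share no library, but they share 1 fit and its estimate of the spread.

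Some of these calls did not outlast another method on the same libraries. With DESeq2 the calls of Cbx6 at 3 days and of Ring1, Pcgf3, Pcgf6 and Rbbp5 at 6 days were lost, with adjusted p of 0.0527 for Ring1 and up to 0.082 for Pcgf6, and limma voom also lost Ring1 (0.0534) and Cbx6 (0.0536). With upper-quartile scaling Ezh1 (0.051) and Cbx6 (0.11) at 3 days and Pcgf3 (0.059), Pcgf6 (0.0754) and Kdm6a (0.0592) at 6 days were lost. Thinning all libraries to the smallest total lost Cbx6 (0.0861) at 3 days and Pcgf1 (0.0985), Pcgf2 (0.0744), Pcgf3 (0.0799), Pcgf6 (0.108) and Rbbp5 (0.123) at 6 days. Fitting only the 2 groups compared lost Cbx6 (0.0558) at 3 days and Ring1 (0.0806), Pcgf2 (0.0518), Pcgf3 (0.062), Pcgf6 (0.0847), Rbbp5 (0.0611) and Kdm6a (0.0521) at 6 days. With no filter on low counts Cbx6 (0.0911), Pcgf3 (0.0546) and Pcgf6 (0.0566) at 3 days and Pcgf6 (0.0801) and Rbbp5 (0.12) at 6 days were lost, and DESeq2's size-factor scaling within edgeR lost Cbx6 (0.0544).

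Leaving out the 5 Col1a1 libraries, which leaves 3 against 2 libraries at 3 days and 1 against 1 at 6 days, kept 7 of the 12 calls at 3 days: Ezh1, Ezh2, Phf19, Bmi1, Phc1, Rybp and Kdm6a. Rbbp4, Pcgf3, Pcgf6, Cbx6 and Men1 were lost (edgeR adjusted p of 0.0603 to 0.113). At 6 days, with 1 library against 1, most of the 16 calls were lost. Far fewer of all tested genes were called there too, so the loss is not particular to the members. The 6-day values that moved by more than 1.5 times were Dot1l (-0.05) and Pcgf2 (-0.11), which came closer to 0, and Ring1 (0.66), Pcgf1 (0.94) and Pcgf3 (-0.25), which went farther from it. The only DMSO library left at 6 days was replicate 3. Among the 6-day DMSO libraries it had the lowest Ring1 (7.88, against 11.5 and 10.2 CPM) and Pcgf1 (3.49, against 4.98 and 5.32 CPM). It also had the highest Ezh2 (308, against 285 and 293 CPM). What was kept at 6 days, and the larger Ring1 and Pcgf1 values, rest on that 1 control.

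**Figure D2:**
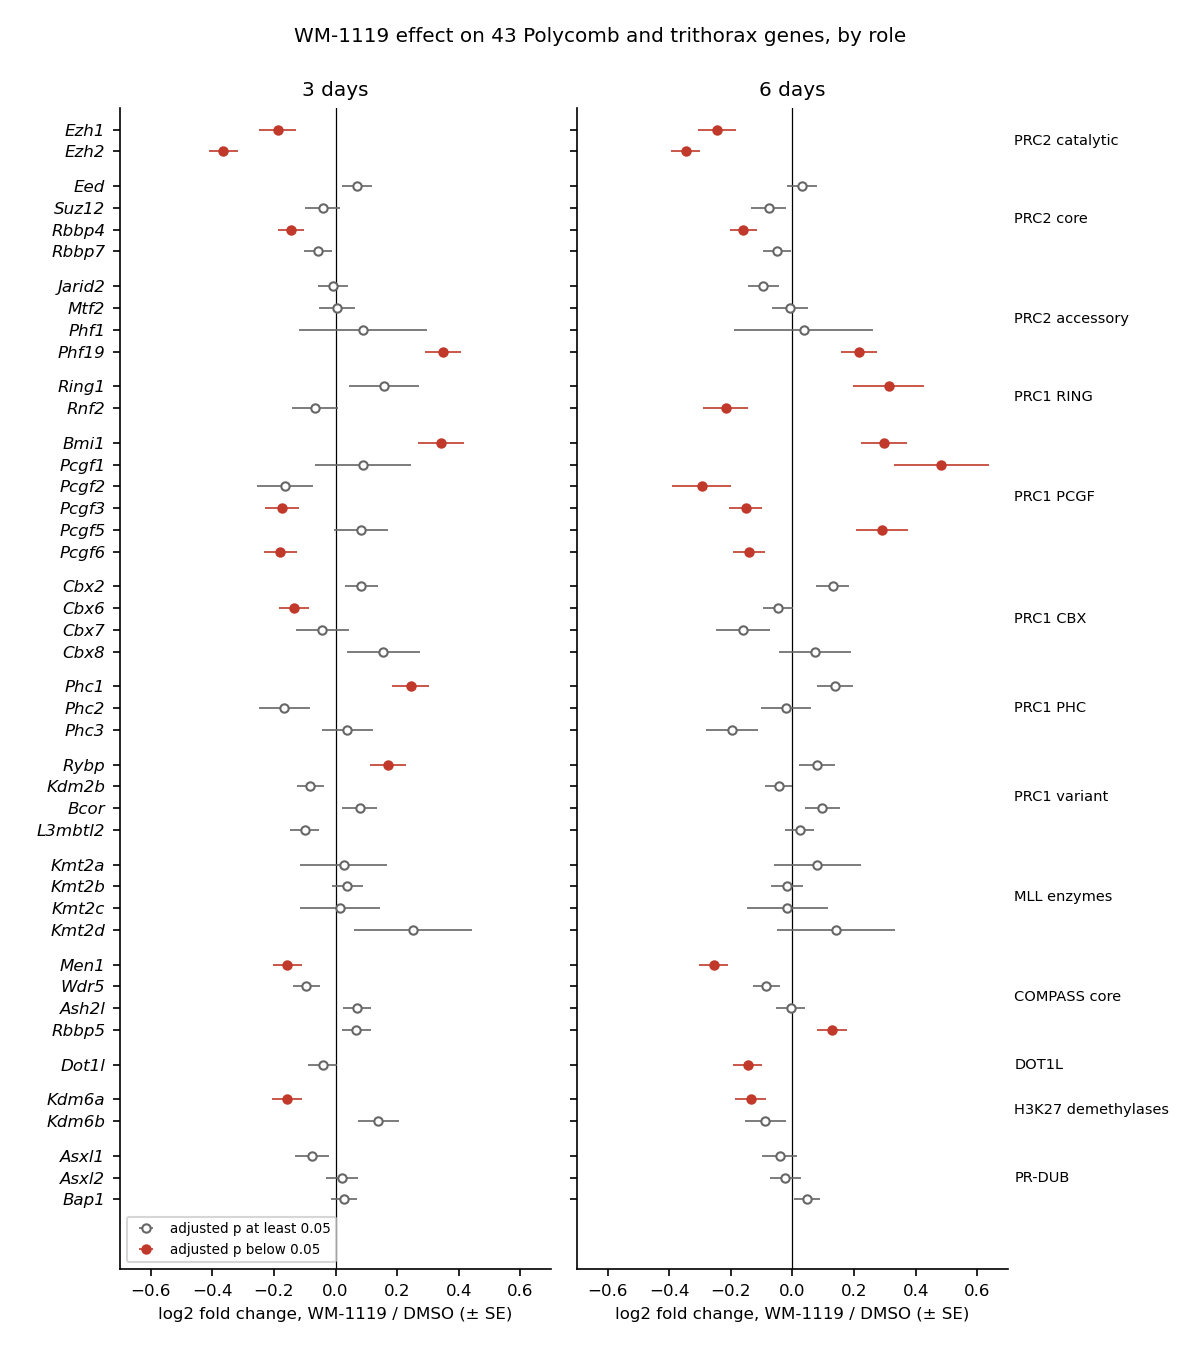
Log2 fold change of WM-1119 against DMSO with its standard error for each of the 43 genes at 3 days (left) and 6 days (right), grouped by role; filled red points passed the edgeR test at adjusted p below 0.05. Ezh2 and Ezh1 lie left of 0 at both times and Phf19 and Bmi1 right of it, and no point lies beyond 0.5 on the log2 scale.

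Both PRC2 methyltransferase genes fell. Ezh2 (chr6:47530274-47595270), the main H3K27 methyltransferase of dividing cells, gave 308, 292 and 273 CPM in the DMSO libraries at 3 days and 225, 228 and 225 CPM with WM-1119. At 6 days it gave 285, 293 and 308 CPM in DMSO and 226, 239 and 232 CPM with WM-1119. All 6 treated libraries lay below all 6 controls. It fell by 22.3% at 3 days (log2 fold change -0.36, SE 0.0471, edgeR adjusted p = 4.57e-06) and fell by 21.3% at 6 days (-0.35, SE 0.0471, adjusted p = 5.84e-06), and these calls held under every alternative tried at each time.

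Ezh1 (chr11:101191115-101226463), the paralog that also works in resting cells, was present at a much lower level. It gave 62.0, 61.2 and 67.7 CPM in DMSO and 53.5, 59.5 and 54.0 CPM with WM-1119 at 3 days. At 6 days the values were 59.6, 59.8 and 60.3 CPM in DMSO and 49.1, 54.3 and 48.2 CPM with WM-1119. The treated libraries lay below their controls at both times (log2 fold change -0.19, SE 0.0604, edgeR adjusted p = 0.0262 at 3 days; -0.24, SE 0.0611, adjusted p = 0.00381 at 6 days). The 3-day call was lost without DMSO replicate 3 (adjusted p = 0.127), WM-1119 replicate 1 (0.0981) or WM-1119 replicate 3 (0.105). The share of Ezh2 in the pair hardly moved, at 87.8% and 86.5% of the summed RPKM in DMSO and WM-1119 at 3 days and 88.6% and 87.9% at 6 days.

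Of the 4 other core subunits of PRC2, 1 changed. Rbbp4 fell by 9.61% at 3 days (log2 fold change -0.15, edgeR adjusted p = 0.0146) and fell by 10.5% at 6 days (-0.16, adjusted p = 0.00628); its 3-day call was lost without replicate 3 (0.0555) of DMSO or 2 (0.0896) of WM-1119. Eed, the subunit that reads methylated lysine 27, Suz12, the scaffold, and Rbbp7 were called at neither time. Their log2 fold changes ran from -0.08 to 0.07, and the 95% interval reached from -0.16 to 0.08 for Suz12 and from -0.03 to 0.17 for Eed at 3 days.

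Of the 4 accessory subunits, which steer PRC2 to its targets, 1 changed. Phf19, a Polycomb-like protein (chosen for its values by library after these were seen), gave 42.7, 48.2 and 43.5 CPM in DMSO and 57.3, 55.7 and 58.6 CPM with WM-1119 at 3 days. At 6 days it gave 47.9, 52.0 and 48.3 CPM in DMSO and 55.7, 57.7 and 58.4 CPM with WM-1119. Every treated library lay above every control, and the log2 fold change was 0.35 (SE 0.0585, edgeR adjusted p = 1.07e-04) at 3 days and 0.22 (SE 0.058, adjusted p = 0.00681) at 6 days. Its Polycomb-like paralogs Mtf2 (0.00 and -0.01) and Phf1 (0.09 and 0.04), and Jarid2 (-0.01 and -0.10), a cofactor of another PRC2 form, did not pass. Phf1 was poorly measured: DMSO 6 days replicate 3 had 5.49 CPM, against 10.2 and 11.3 CPM in the other DMSO libraries of that time. Without the Col1a1 libraries, 1 against 1 at 6 days, that library is the only control left, and Phf1 was then called higher (0.81, adjusted p = 0.0147).

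**Figure D3:**
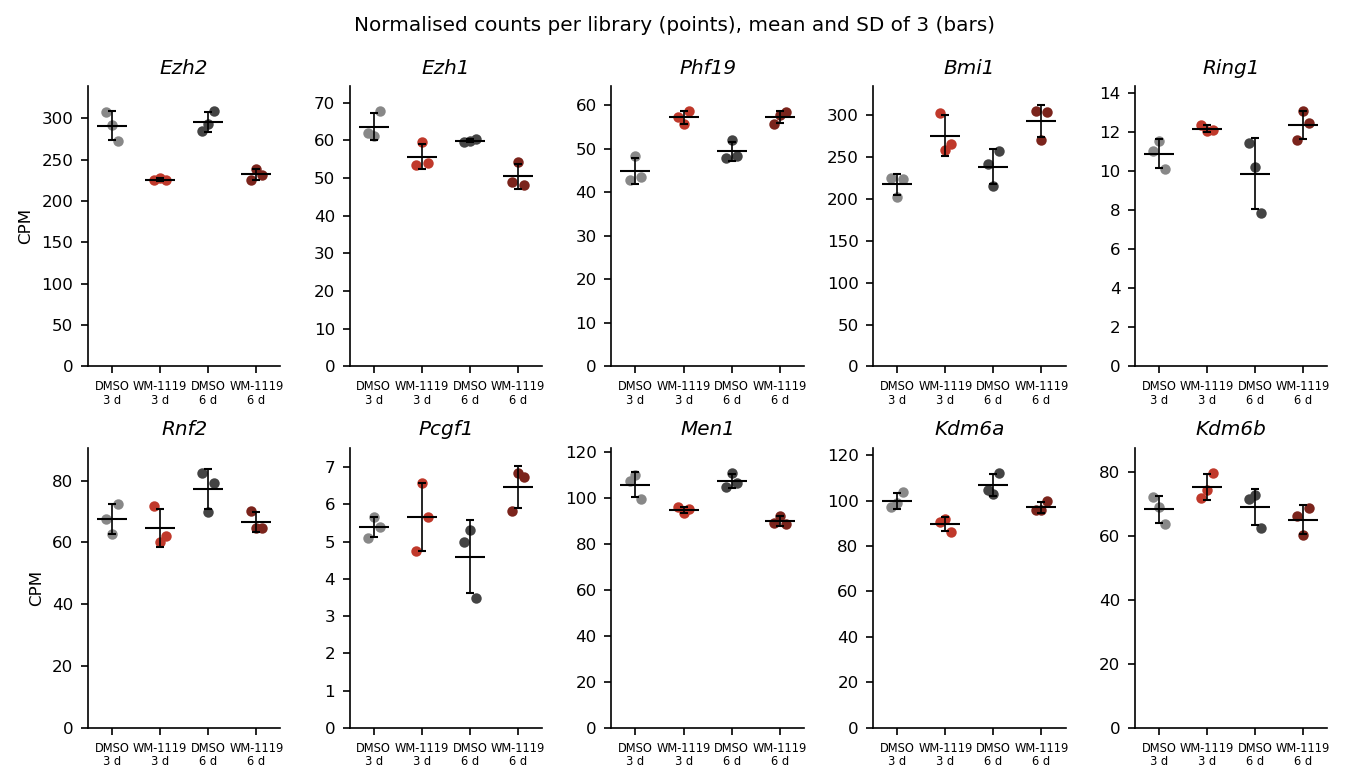
CPM of 10 members in each library (points), with the mean and SD of each group of 3 (bars); axes start at 0. Ezh2 and Men1 show treated libraries below all controls and Phf19 and Bmi1 above, while Kdm6b overlaps.

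The 2 genes for the RING ubiquitin ligases of PRC1 were called in opposite directions at 6 days, and each call was lost on leaving out single libraries. Rnf2 (RING1B, chr1:151469398-151500991), the main ligase, gave 82.5, 70.0 and 79.4 CPM in DMSO and 70.3, 64.7 and 64.8 CPM with WM-1119 at 6 days. The groups overlapped by 1 library, and the log2 fold change was -0.22 (SE 0.0738, edgeR adjusted p = 0.031). At 3 days it gave 67.6, 62.8 and 72.5 CPM in DMSO and 71.8, 60.1 and 62.0 CPM with WM-1119, with no call (-0.07, adjusted p = 0.562). The 6-day call was lost without replicate 1 (0.141) or 3 (0.0792) of DMSO or 2 (0.0764) or 3 (0.108) of WM-1119.

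Ring1 (RING1A, chr17:34020792-34024680), its less abundant paralog, gave 11.5, 10.2 and 7.88 CPM in DMSO and 11.6, 13.1 and 12.5 CPM with WM-1119 at 6 days (log2 fold change 0.31, SE 0.115, edgeR adjusted p = 0.0422). At 3 days it gave 11.1, 11.5 and 10.1 CPM in DMSO and 12.4, 12.04 and 12.1 CPM with WM-1119 (0.16, adjusted p = 0.352). Treated libraries lay above controls at both times, and the lowest value was DMSO 6 days replicate 3. Without that library the 6-day log2 fold change was 0.18 and not called (adjusted p = 0.184). The call was also lost without DMSO replicate 2 (0.0629), any of the 3 WM-1119 libraries of 6 days (0.0558 to 0.152), DMSO 3 days replicate 1 (0.0518) or WM-1119 3 days replicate 2 or 3 (0.0503 and 0.0512). Rnf2 made up 84% ± 2.7 of the pair's RPKM in DMSO at 6 days and 78.3% ± 1.74 with WM-1119 (SD, n = 3), with ranges of 82.1% to 87.1% and 76.9% to 80.2%.

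The PCGF genes, each of which defines a separate PRC1 form, divided evenly. All 6 were called at 6 days: Bmi1, Pcgf1 and Pcgf5 higher, and Pcgf2, Pcgf3 and Pcgf6 lower, where 30.8% of all tested genes were called. At 3 days Bmi1 was higher and Pcgf3 and Pcgf6 lower, and the other 3 did not pass. The count of 6 rests on marginal calls for most of them, given gene by gene below.

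Bmi1 (PCGF4, chr2:18677018-18686629), the PCGF of canonical PRC1 and a repressor of Cdkn2a, gave 226, 202 and 224 CPM in DMSO and 303, 259 and 266 CPM with WM-1119 at 3 days. The 6-day values were 242, 216 and 258 CPM in DMSO and 305, 271 and 304 CPM with WM-1119. Treated libraries lay above all controls at both times. The rise was 26.8% at 3 days (log2 fold change 0.34, SE 0.0758, edgeR adjusted p = 0.00404) and 22.8% at 6 days (0.30, SE 0.0755, adjusted p = 0.00791). Its share of the summed PCGF RPKM was 52.2% ± 1.39 in DMSO and 59.8% ± 2.32 with WM-1119 at 3 days, and 54.2% ± 2.34 and 59.5% ± 2.09 at 6 days (SD, n = 3).

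Pcgf1 (chr6:83077552-83080855), of the BCOR-containing PRC1.1, had the largest fitted change of any member and the fewest reads, 86 to 204 counts per library. Values at 6 days were 4.98, 5.32 and 3.49 CPM in DMSO and 5.81, 6.84 and 6.74 CPM with WM-1119, with no overlap (log2 fold change 0.48, SE 0.155, edgeR adjusted p = 0.0213). At 3 days it gave 5.11, 5.65 and 5.39 CPM in DMSO and 4.76, 6.56 and 5.67 CPM with WM-1119, groups that overlapped (0.09, adjusted p = 0.729). The 6-day call was lost without DMSO replicate 3 (0.0828), whose value was the lowest, or WM-1119 replicate 2 (0.0857) or 3 (0.0712).

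Pcgf2 (MEL18), the closest paralog of Bmi1, moved the other way, with a log2 fold change of -0.29 (SE 0.0953, edgeR adjusted p = 0.0221) at 6 days and -0.16 (adjusted p = 0.215) at 3 days. Its 6-day call was lost without replicate 1 (0.12) or 2 (0.0733) of DMSO or 1 (0.0848) or 3 (0.0733) of WM-1119. Pcgf5 was higher at 6 days (0.29, SE 0.086, adjusted p = 0.0128), a call lost without replicate 2 (0.0631) of DMSO or 3 (0.0681) of WM-1119. Pcgf3, which with Pcgf5 forms variant PRC1 complexes, was lower (-0.17, adjusted p = 0.023 and -0.15, adjusted p = 0.037).

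The Pcgf3 calls were lost at 3 days without replicate 1 (0.0605) or 3 (0.054) of DMSO or 2 (0.0709) or 3 (0.108) of WM-1119, and at 6 days without replicate 3 (0.123) of DMSO or 2 (0.0758) or 3 (0.123) of WM-1119. Pcgf6, the PCGF of the E2F6- and MGA-containing PRC1.6, fell by 11.7% at 3 days (edgeR adjusted p = 0.017) and fell by 9.34% at 6 days (adjusted p = 0.0471). Its 3-day call was lost without replicate 1 (0.0516) of DMSO or 2 (0.0724) of WM-1119. Its 6-day call was lost without any of 9 of the 12 libraries, the exceptions being DMSO 3 days replicates 2 and 3 and WM-1119 6 days replicate 2, with adjusted p of 0.0555 to 0.131.

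The remaining PRC1 subunits changed little. Among the CBX proteins, which read methylated lysine 27, Cbx6 was lower at 3 days (log2 fold change -0.14, edgeR adjusted p = 0.0484), a call lost without any of the 6 libraries of that time (0.0604 to 0.15) and without any 1 of the 3 WM-1119 libraries of 6 days (0.056 to 0.0643). Cbx2 (0.08 and 0.13), Cbx7 (-0.04 and -0.16) and Cbx8 (0.15 and 0.07) did not pass at 3 or 6 days. Without DMSO 6 days replicate 3 Cbx7 was called at 6 days (adjusted p = 0.0137). Cbx2 was called higher at 6 days in the 6-day fit blocked by replicate number, whose numbers pair (0.13, adjusted p = 0.0318), and with upper-quartile scaling (0.0397). Of the PHC genes, whose products link PRC1 complexes to each other, Phc1 was higher at 3 days (0.24, SE 0.0596, adjusted p = 0.00415) and 0.14 at 6 days (adjusted p = 0.0787). With upper-quartile scaling Phc1 was called higher at 6 days too (0.15, edgeR adjusted p = 0.0489).

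Phc1 (values by library also chosen after they were seen) gave 30.6, 33.8 and 31.3 CPM in DMSO and 37.5, 38.0 and 37.8 CPM with WM-1119 at 3 days, and 34.6, 35.7 and 37.1 against 38.5, 39.6 and 40.0 CPM at 6 days, so treated libraries lay above controls at both times. Phc2 and Phc3 did not pass; Phc2 was called lower at 3 days without DMSO replicate 1 (edgeR adjusted p = 0.00536), and Phc3 was called lower at 6 days without replicate 3 (0.0169) of DMSO or 1 (0.0413) of WM-1119, when low-count genes were kept (0.049) and in the 6-day fit blocked by replicate number (0.0115). Rybp, of variant PRC1, was higher at 3 days (0.17, adjusted p = 0.0392), a call lost without any 1 of the DMSO libraries (0.051 to 0.182) or WM-1119 replicate 1 (0.0661) or 3 (0.191). Kdm2b, which brings PRC1.1 to CpG islands, Bcor and L3mbtl2 did not pass at either time, with log2 fold changes from -0.10 to 0.10.

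On the trithorax side 0 of the 4 MLL genes passed at either time with edgeR, DESeq2 or limma voom (smallest unadjusted edgeR p 0.227), and 2 of the 4 COMPASS subunits, Men1 and Rbbp5, did at 1 or both times. Kmt2a (MLL1, chr9:44803355-44881352), the gene rearranged in mixed-lineage leukaemia, gave 243, 246 and 234 CPM in DMSO and 190, 289 and 256 CPM with WM-1119 at 3 days. At 6 days the DMSO libraries gave 224, 242 and 235 CPM and the treated ones gave 259, 214 and 269 CPM. The treated libraries spread to both sides of the controls, and the log2 fold change was 0.03 (95% interval -0.30 to 0.35, edgeR adjusted p = 0.922) at 3 days and 0.08 (-0.24 to 0.40, adjusted p = 0.718) at 6 days.

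Kmt2c and Kmt2d, the enhancer methyltransferases, varied in the same libraries. Kmt2d, a frequent lymphoma tumour suppressor (values by library chosen after they were seen), gave 278, 306 and 253 CPM in DMSO and 240.5, 398 and 356 CPM with WM-1119 at 3 days, then 250, 273 and 239 CPM against 291, 228 and 322 CPM at 6 days. The 95% interval of its log2 fold change, -0.19 to 0.69 at 3 days, was the widest of the 4 and spanned 0. For Kmt2b, the shortest of the 4, the interval was -0.07 to 0.14 at 3 days and -0.12 to 0.09 at 6 days.

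The deviation of the MLL genes by library was compared with that of all long genes. In WM-1119 3 days replicate 1, the log2 CPM of Kmt2a, Kmt2c and Kmt2d deviated from the means over 12 libraries by -0.341, -0.325 and -0.23, and in replicate 2 by 0.264, 0.234 and 0.495. In the same 2 libraries the median deviation of the 469 tested genes with over 8 kb of exon was -0.13 and 0.09, while that of the 4004 genes of up to 2 kb was 0.02 and -0.02. In WM-1119 6 days replicate 2 the long genes were at -0.08 and Kmt2d at -0.31. In WM-1119 6 days replicate 1 the long genes were at 0.07, Kmt2a at 0.105, Kmt2c at 0.0962 and Kmt2d at 0.0462. In replicate 3 of that group they were at 0.05, 0.163, 0.0825 and 0.19, in the same order. Some libraries did not pair this way. In WM-1119 3 days replicate 3 Kmt2d stood at 0.335 and Kmt2a at 0.0929 with the long genes at 0.01. In DMSO 6 days replicate 3 Kmt2d stood at -0.24 with the long genes at 0.01. It stood at -0.173 in DMSO 6 days replicate 1 and -0.159 in DMSO 3 days replicate 3, with the long genes at 0.01 in both. Kmt2b, also over 8 kb, lay on the side of the long genes in WM-1119 3 days replicates 1 and 2 (-0.0468 and 0.146). In WM-1119 6 days replicates 1 and 3 Kmt2b lay on the other side (-0.0389 and -0.0339). The part of gene length in the MLL values was not tested.

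**Figure D4:**
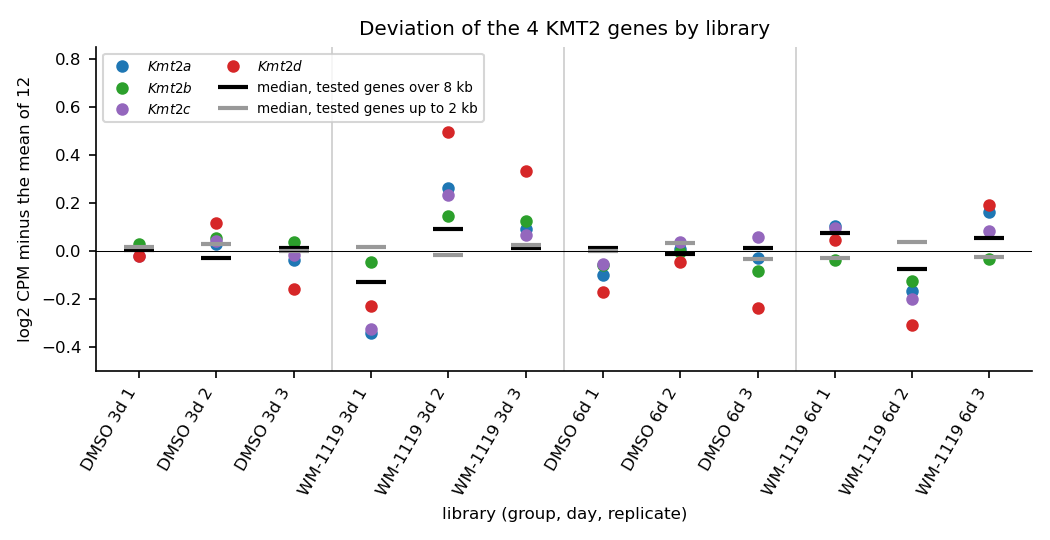
Log2 CPM of the 4 KMT2 genes in each library minus their mean over the 12 libraries (points), with the median deviation of tested genes over 8 kb (black bars) and up to 2 kb of exon (grey bars). The points farthest from 0 are in WM-1119 3 days replicates 1 and 2, at -0.341 and 0.495, where the black bars lie at -0.13 and 0.09.

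Men1 (menin, chr19:6334979-6340894), the tumour suppressor that ties MLL1 and MLL2 to their targets, fell at both times. It gave 108, 110 and 99.7 CPM in DMSO and 96.1, 93.6 and 95.4 CPM with WM-1119 at 3 days. After 6 days it gave 105, 111 and 107 CPM in DMSO and 89.1, 92.4 and 88.6 CPM with WM-1119. Every treated library lay below every control (log2 fold change -0.16, SE 0.0476, edgeR adjusted p = 0.0186 at 3 days; -0.26, SE 0.0478, adjusted p = 2.6e-04 at 6 days). The 3-day call was lost without replicate 1 (0.0695) or 2 (0.0773) of DMSO or 2 (0.075) or 3 (0.0523) of WM-1119.

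Among the WRAD subunits that every COMPASS complex shares, Rbbp5 was higher at 6 days (log2 fold change 0.13, edgeR adjusted p = 0.0444), a call lost without any of 7 of the 12 libraries: DMSO 3 days replicate 1, WM-1119 3 days replicates 2 and 3, DMSO 6 days replicates 1 and 2, and WM-1119 6 days replicates 1 and 3 (0.0534 to 0.197). Wdr5 (-0.09 and -0.08) and Ash2l (0.07 and -0.01) did not pass.

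Dot1l (chr10:80755101-80795461), the only H3K79 methyltransferase and a partner of MLL fusion proteins, gave 203, 211 and 206 CPM in DMSO and 193, 209 and 200 CPM with WM-1119 at 3 days, with overlap (log2 fold change -0.04, edgeR adjusted p = 0.565). The 6-day libraries gave 203, 210 and 199 CPM in DMSO and 187, 174 and 192 CPM with WM-1119, without overlap (-0.15, SE 0.0467, adjusted p = 0.0214). That call was lost without replicate 2 (0.0807) of DMSO or 2 (0.105) of WM-1119, and without the Col1a1 libraries the value was -0.05 (0.754).

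Of the 2 H3K27 demethylase genes, 1 fell. Kdm6a (UTX, chrX:18160862-18279936), a subunit of the Kmt2c and Kmt2d complexes, gave 96.9, 99.0 and 104 CPM in DMSO and 90.7, 91.8 and 86.0 CPM with WM-1119 at 3 days. At 6 days it gave 105, 103 and 112 CPM in DMSO and 95.7, 95.6 and 99.8 CPM with WM-1119. It fell without overlap at both times (log2 fold change -0.16, SE 0.0491, edgeR adjusted p = 0.0217; -0.14, SE 0.0489, adjusted p = 0.0384). The 3-day call was lost without replicate 3 (0.0932) of DMSO or 3 (0.116) of WM-1119, and the 6-day call without DMSO replicate 1 (0.0544) or 3 (0.147) or any of the 3 WM-1119 libraries (0.0509 to 0.0824).

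Kdm6b (JMJD3, chr11:69398508-69420367), the inducible demethylase, gave 72.1, 69.1 and 63.6 CPM in DMSO and 71.9, 74.3 and 79.7 CPM with WM-1119 at 3 days, and 71.7, 72.9 and 62.5 CPM against 66.3, 60.2 and 68.8 CPM at 6 days. The groups overlapped at both times, and the log2 fold changes were 0.14 (edgeR adjusted p = 0.141) and -0.09 (adjusted p = 0.35). It had the smallest p of the 43 members for the difference between times (-0.23, SE 0.0948, unadjusted p = 0.0259, adjusted p = 0.488). The PR-DUB genes Asxl1, Asxl2 and Bap1, whose products remove ubiquitin from histone H2A, did not pass at either time with edgeR, DESeq2 or limma voom (smallest unadjusted edgeR p 0.19), with log2 fold changes from -0.08 to 0.05.

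Time alone moved the members little. Between DMSO at 6 and 3 days 0 of 43 passed (edgeR; 0.809% of all tested genes did; 8 members had an unadjusted p below 0.05; DESeq2 and limma voom gave 0 too). Between WM-1119 at 6 and 3 days 1 of 43 passed (5.62% of all tested genes; 11 unadjusted): Cbx7 was lower (log2 fold change -0.34, SE 0.0892, adjusted p = 0.026). Its values by library, chosen after they were seen, were 24.9, 28.1 and 26.2 CPM at 3 days and 20.8, 22.2 and 19.7 CPM at 6 days. In DMSO Cbx7 gave 27.6, 26.8 and 27.5 CPM at 3 days and 25.8, 24.2 and 19.8 CPM at 6 days (-0.22, edgeR adjusted p = 0.263). The share of all tested genes with an unadjusted p below 0.05 was not counted for any contrast. The unadjusted member counts therefore cannot be set against a background.

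Other genes of these pathways were followed on 6 lists of 119 genes, of which 100 were tested. Of 24 tested Polycomb partners 10 were called at 3 days (6 higher, 4 lower) and 12 at 6 days (5 higher, 7 lower), or 41.7% and 50% of the list against 24.4% and 30.8% of all tested genes. Their median log2 fold change was 0.00 and -0.03, like that of all tested genes (0.00 at both times). This list too was chosen with earlier results known, so its excess is no test. Several calls were lost on leaving out single libraries. At 6 days these were Fbrsl1 (9 of the 12 libraries), Bcorl1 (8), Mbd5 (8), Fbrs (4), Yaf2 (3) and Csnk2b (3). At 3 days they were E2f6 (5), Foxk2 (5), Wdr5b (4) and Sfmbt1 (2). Higher were the PRC1-associated SAM-domain genes Scml4 (log2 fold change 0.57 and 0.66, edgeR adjusted p = 1.88e-04 and 1.90e-05) and Scmh1 (0.29 and 0.31), with Mbd6, a PR-DUB partner, at 3 days (0.33) and E2f6, of PRC1.6, at 6 days (0.21). Lower were the deubiquitinase Usp7, a PRC1.1 subunit (-0.22 and -0.18), and L3mbtl3 (-0.33 and -0.30), with Skp1 at 3 days (-0.19) and Foxk2 at 6 days (-0.23). Beside the falls of Ezh1 and Ezh2, the PRC2 cofactor Aebp2 stood at -0.09 and -0.02 and was not called.

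Of 25 trithorax partners 4 were called at each time (3 higher, 1 lower), or 16% against 24.4% and 30.8% of all tested genes. Mllt10 (0.19 and 0.17), a DOT1L cofactor, Aff3 (0.19 and 0.30) and Setd1b (0.17 and 0.19) were higher, and Mrfap1 (-0.19 and -0.15) was lower. At 3 days the Aff3 call was lost without replicate 1 (edgeR adjusted p = 0.0577) of DMSO or 2 (0.0721) of WM-1119. At 6 days the Mllt10 call was lost without WM-1119 replicate 3 (0.0534), and the Mrfap1 call without replicate 3 (0.0537) of DMSO or 3 (0.101) of WM-1119. Setd1b was the least firm: its 6-day call was lost without replicate 1 or 3 of either group (0.0581 to 0.093), and its 3-day call without any of 9 libraries, all but DMSO 3 days replicate 2, WM-1119 3 days replicate 1 and DMSO 6 days replicate 3 (0.0517 to 0.34). Of 8 KAT6 complex genes, the enzymes that WM-1119 inhibits and their partners, 2 were higher at 3 days and 1 at 6 days, or 25% and 12.5% (Brpf3 0.35 and 0.23; Meaf6 0.20 at 3 days, lost on leaving out replicate 1 or 2 of DMSO, or 1 or 3 of the treated libraries, at 0.0726 to 0.113). Kat6a (0.01 and 0.10) and Kat6b (0.06 and -0.04) did not pass.

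Of 26 SWI/SNF genes, the remodellers that oppose Polycomb, 4 were called at 3 days (3 higher, 1 lower) and 6 at 6 days (4 higher, 2 lower), or 15.4% and 23.1% against 24.4% and 30.8% of all tested genes. Bcl7c rose most (0.44 and 0.55), Smarcc2 (0.17 and 0.18) and Bicra (0.22 and 0.23) were higher, and the ATPase Smarca4 was lower at 3 days (-0.23) and not called at 6 days (-0.09). The lower SWI/SNF genes at 6 days were Bcl7a (-0.13) and Ss18 (-0.12). The Smarcc2 call at 3 days was lost without WM-1119 replicate 2 (edgeR adjusted p = 0.0723) or 3 (0.0597). The Bicra call was lost at 3 days without replicate 1 or 3 of DMSO or 2 or 3 of WM-1119 (0.0635 to 0.121) and at 6 days without DMSO replicate 1 or WM-1119 replicate 1 or 3 (0.0805 to 0.102). Bcl7a lost its call without DMSO 6 days replicate 1 or 2 or WM-1119 6 days replicate 2 (0.0504 to 0.0807), and Ss18 without any of 9 libraries, all but DMSO 3 days replicates 2 and 3 and DMSO 6 days replicate 2 (0.0509 to 0.162).

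Among the enzymes that erase H3K4 methylation, which oppose the MLL members, 2 of 5 were called at each time (40%, against 24.4% and 30.8% of all tested genes), both lower. Kdm5b gave 19.1, 18.4 and 15.6 CPM in DMSO and 5.03, 5.86 and 5.56 CPM with WM-1119 at 3 days, and 16.6, 19.4 and 16.5 CPM against 4.61, 4.18 and 4.22 CPM at 6 days. Its log2 fold change was -1.69 (SE 0.109, edgeR adjusted p = 1.89e-10) and -2.00 (SE 0.118, adjusted p = 1.98e-11), larger than that of any of the 43 members. Kdm1a (LSD1) was lower by less (-0.27 and -0.20).

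Genes known as targets of Polycomb and MLL included larger fold changes than any member's; the 2 sets were not tested against each other. Of 27 such genes 12 were tested, the rest, among them all 11 Hoxa genes and Meis1, having too few counts. At 3 days 7 were called (3 higher, 4 lower) and at 6 days 6 (3 higher, 3 lower), or 58.3% and 50% against 24.4% and 30.8% of all tested genes. The median absolute log2 fold change of the 12 was 0.63 and 0.89, against 0.13 and 0.14 over all tested genes. This list was chosen with earlier results of these data known, so its excess over all genes is no test. It also includes genes with few reads, Hoxb9 (3 to 19 counts per library), Cdkn2b (3 to 21) and Pbx3 (6 to 54), whose fold changes are uncertain. Hoxb8 gave 179, 175 and 164 CPM in DMSO and 51.9, 51.1 and 51.2 CPM with WM-1119 at 3 days, and 182, 189 and 182 CPM against 50.0, 52.6 and 52.1 CPM at 6 days (-1.75 and -1.83). Hoxb7 (-1.19 and -1.16) and Hoxb3 (-0.33 and -0.82) were lower too. The 3-day Hoxb3 call was lost without replicate 1 (edgeR adjusted p = 0.0817) of DMSO or 1 (0.0611) of WM-1119. Hoxb4, Hoxb5, Hoxb6, Hoxb9 and Mef2c were called at neither time, so the tested Hoxb genes did not all fall. Hoxb6 at 3 days gave 22.9 to 25.1 CPM in DMSO and 25.4 to 29.1 CPM with WM-1119, and its groups overlapped at 6 days.

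Cdkn2a, which encodes the tumour suppressors p16 and ARF and is a target of Bmi1, gave 13.7, 11.5 and 12.3 CPM in DMSO and 25.5, 24.7 and 23.8 CPM with WM-1119 at 3 days. Values at 6 days were 10.98, 11.7 and 10.2 CPM in DMSO and 31.1, 37.7 and 36.2 CPM with WM-1119. The log2 fold change was 0.98 (SE 0.0896, edgeR adjusted p = 3.43e-08) and 1.67 (SE 0.0871, adjusted p = 3.3e-12). Its neighbour Cdkn2b had 3 to 21 counts per library and was higher (1.95 and 1.01, adjusted p = 0.00195 and 0.0361), and Pbx3, with 6 to 54 counts, was higher (1.38 and 2.25). The Cdkn2b call at 6 days was lost without DMSO replicate 1 (edgeR adjusted p = 0.135) or 3 (0.0934), WM-1119 replicate 2 (0.0884) or 3 (0.167), or WM-1119 3 days replicate 3 (0.0501). It was also lost in the 6-day fit blocked by replicate number (log2 fold change 0.97, adjusted p = 0.0771), with DESeq2 (0.105), with no filter (0.0741), with only the 2 groups compared (0.0733), with thinning (0.0844) and without the Col1a1 libraries (0.0758). Cdkn2c was lower at 3 days (-0.39) and not called at 6 days (-0.19).

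**Figure D5:**
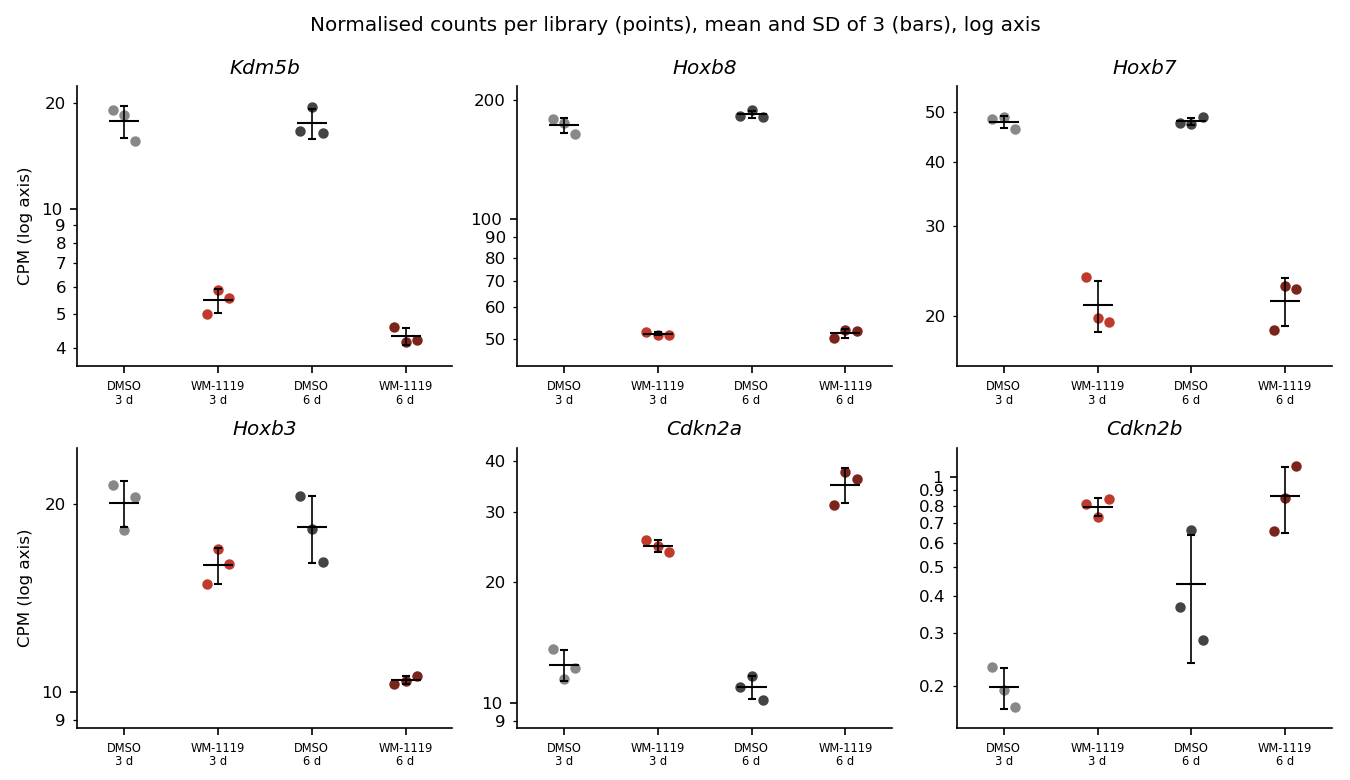
CPM (log axis) of the H3K4 demethylase gene Kdm5b and of 5 genes known as Polycomb or MLL targets in each library (points), with mean and SD of each group of 3 (bars). Treated libraries lie below controls for Kdm5b, Hoxb8, Hoxb7 and Hoxb3 and above for Cdkn2a at both times, and the Cdkn2b groups of 6 days overlap, with 0.665 CPM in DMSO replicate 2 and 0.659 CPM in WM-1119 replicate 1.

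Of the calls named on these further lists, others were lost under another setting too. Setd1b at 3 days was lost with DESeq2 (0.0576), with only the 2 groups compared (0.0581) and with thinning (0.06), and its value fell to 0.09 without WM-1119 3 days replicate 2. Thinning also lost Meaf6 (0.0917) and Hoxb3 (0.0887) at 3 days, and Ss18 at 6 days was lost with only the 2 groups compared (0.0718) and with upper-quartile scaling (0.0747). Without the Col1a1 libraries the 3-day calls of Aff3, Setd1b, Meaf6, Bicra and Smarcc2 and the 6-day calls of Scmh1, E2f6, Usp7, L3mbtl3, Foxk2, Mllt10, Setd1b, Brpf3, Bcl7a and Ss18 were lost, while those of Kdm5b, Hoxb8, Hoxb7, Cdkn2a, Scml4 and Bcl7c were kept at both times.

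Counting bears on some of these values. The strand and multi-mapping settings of the counting are among the details that the sources used here do not give, and RefSeq places a neighbour over the exons or span of Rbbp4 (Sync), Rbbp7 (Txlng), Cbx6 (Npcd), Cbx7 (Apobec3) and L3mbtl2 (Chadl), and a non-coding RNA over Ezh2, Kmt2a, Kmt2b, Kdm6b and Cbx2, so reads of these pairs may not be fully apart. Cdkn2a is 1 entry in the table, and its p16 and ARF transcripts were not separated.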

How the data were processed

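RNA of 12 samples was made into TruSeq stranded mRNA libraries, per the labels' protocols. The deposited table holds whole-number read counts per gene that the authors made with featureCounts on mm10, per the submitters' processing notes; the sources used here name no version, aligner or setting. Of its 27179 entries 874 had no identifier (0.305% to 0.362% of a library's counts) and were left out. RefSeq on GRCm38.p6 gave symbols for 25275 of 26305 genes. Library totals are in the text, and the common biological coefficient of variation between libraries was 5.69%. Genes with few reads, such as Pcgf1 with 86 to 204 counts per library, also carry counting error.

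Counts were scaled by TMM and filtered with filterByExpr, and all 12 libraries entered 1 robust quasi-likelihood fit with 4 group means (edgeR 4.0.16, R 4.3.3). P-values are two-sided and adjusted by Benjamini-Hochberg over the 11997 genes of a contrast at 0.05; errors are standard errors. CPM use TMM-scaled totals, and RPKM also the table's gene length. The smallest chi-square per degree of freedom between replicates was 3.36, so no library was a duplicate of another. Alternatives were RLE and upper-quartile scaling, other filters, DESeq2 1.42.0, limma voom (3.58.1), thinning to 14691369 counts, 2 groups alone, a replicate block, and each library left out.

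Replicate numbers are in the sample titles. At 6 days deviations of same-numbered DMSO and WM-1119 libraries correlated over genes (r = 0.213, 0.237 and 0.204), which counts as pairing; at 3 days they did not (-0.0261, 0.0644 and -0.00516).

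The members, lists and tests were chosen with earlier results of these data known. All members are named; libraries are given 1 by 1 for a set of 10 genes (Ezh1, Ezh2, Bmi1, Ring1, Rnf2, Kmt2a, Men1, Dot1l, Kdm6a, Kdm6b) and for called members with a log2 fold change of at least 0.4 in size; those of Phf19, Phc1, Kmt2d, Cbx7, Kdm5b, Hoxb8 and Cdkn2a were chosen after they were seen. Of each further list up to 3 rises and 3 falls with the smallest p at each time are named.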

Additional observations from a re-analysis of the deposited data

Results flagged for a closer look

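Of the values reported, 1 differed between the times by a test of the difference itself. The WM-1119 effect on Cdkn2a, the locus of p16 and ARF and a target of Bmi1, was 0.69 larger on the log2 scale at 6 days than at 3 days (edgeR interaction, adjusted p = 0.00642), while none of the 43 members passed that test.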

How the results depend on the processing

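No call of a member changed sign under any alternative. Of 28 member calls over both times, 5 held under all 22 alternatives at 3 days or 23 at 6 days: Ezh2 at both times and Phf19, Bmi1 and Phc1 at 3 days; the other 23 were lost under at least 1, and 6 of 58 uncalled values gained a call. Of the 12 members called at 3 days 7 kept their call without the libraries with Col1a1 above 1 CPM, where 2296 of 12185 tested genes were called. At 6 days that setting left 1 library against 1. The 16 members called at 6 days became 10 with only the 2 groups compared, where 3360 of 11729 tested genes were called. With 1 library left out the counts of 12 and 16 ranged from 6 to 12 and from 7 to 16. The lowest counts came without DMSO 3 days replicate 3 or WM-1119 3 days replicate 3 (6 each) and without WM-1119 6 days replicate 3 (7). In these settings 2573 of 12193, 2300 of 12207 and 2925 of 12198 tested genes were called. The members called between DMSO at 6 and 3 days numbered 0, and more without the Col1a1 libraries. Those called between WM-1119 at 6 and 3 days numbered 1, and fewer without the Col1a1 libraries. In that setting each 6-day group had 1 library. The WM-1119 count was 3 with upper-quartile scaling, 3 with no filter, 4 with 2 groups alone and 0 to 4 with 1 library left out. For these comparisons between times the calls over all tested genes in each setting were not counted. The member counts therefore cannot be set against a background. The count of partner genes called at 6 days was 31, and 15 without the Col1a1 libraries, where 13 of the 31 kept their call. With the replicate number as a block on all libraries 12 and 16 members were called, and 3157 and 3904 of 11997 tested genes. The block within 6 days, added after seeing the data, called 18 members (7 higher, 11 lower) and 4352 of 11729 tested genes. No member call was lost, Cbx2 (edgeR adjusted p = 0.0318) and Phc3 (0.0115) were gained, and no other member call changed with pairing. Among partner genes the Cdkn2b call at 6 days was lost (0.0771). The cause of these changes was not tested. Fewest reads limit Pcgf1, Cdkn2b and Pbx3.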
